A study of Mus musculus with 38 samples.

Results

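Myod1, Myog, Myf6, Mef2a, Mef2c, Mef2d, Hdac4, Hdac5 and Hdac9 were followed in the soleus muscle of C57BL/6J mice across fasting-induced torpor by Cap Analysis of Gene Expression (CAGE), which sequences the capped 5′ ends of RNA and so counts transcripts at their start sites. The 9 genes were represented by 13 CAGE clusters, out of 10819 in the table, whose summit was no more than 500 bp away, on the same strand, from a 5′ end that GENCODE gives the gene. Each of the 9 genes had at least 1 such cluster. Mef2c, Mef2d, Hdac4 and Hdac5 had a main and a second cluster, ordered by mean level and called the main and second promoter here, and the other 5 genes had 1.

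Each of the 38 libraries came from 1 young adult male mouse. Experiment 1 held 28 libraries in 6 groups. Pre mice (n = 4) were sampled on day 1 with free access to food. Mid mice (n = 8) were sampled on day 2 after food had been withdrawn, when the animals were likely to be torpid. Post mice (n = 4) were sampled on day 3 after food had been returned. HiT mice (n = 4) were kept at a high ambient temperature on day 2, and Fed mice (n = 4) kept their food on day 2. Dep mice (n = 4) were deprived of torpor on day 2 by touching. In the methods food was removed on day 2 except in Fed, so Dep mice, like Mid mice, were without food. The study describes the torpid mice as fasted at a low ambient temperature, and gives no separate experimental temperature for Pre, Post and Dep mice. The sample labels call the Fed condition starvation, the series' design text gives HiT mice food, and the methods of the study describe HiT mice as fasted in the warm and Fed mice as fed at the low ambient temperature, so the groups are named here by their sample titles. Experiment 2 repeated Pre (n = 2), Mid (n = 5) and Post (n = 3). All animals were wild type, and none of the groups carried a transgene.

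MyoD (Myod1), myogenin (Myog) and MRF4 (Myf6) are basic helix-loop-helix factors of the skeletal muscle lineage that bind E-boxes as dimers with E proteins. MyoD marks activated satellite cells and is also present at low level in the nuclei of adult fibers, myogenin rises when muscle loses its nerve, and MRF4 is the most abundant of the family in adult fibers. MEF2 proteins (Mef2a, Mef2c, Mef2d) are MADS-box factors that act with them on muscle promoters. Class IIa histone deacetylases (Hdac4, Hdac5, Hdac9) bind MEF2 and repress its targets until kinases such as CaMK, PKD and the SIK family phosphorylate them and send them out of the nucleus.

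The start regions of the genes on which the results turn are printed from RefSeq (GRCm38.p6, the build also called mm10, from 250 bases before to 50 bases after the RefSeq start), because they held the CAGE summit of Myog, Hdac9 and Hdac5. Capitals mark the E-box (CANNTG, read the same on both strands), the MEF2 consensus on either strand and the TATA box (TATAAA on either strand).
Myog, chr1:134289754-134290053, plus strand: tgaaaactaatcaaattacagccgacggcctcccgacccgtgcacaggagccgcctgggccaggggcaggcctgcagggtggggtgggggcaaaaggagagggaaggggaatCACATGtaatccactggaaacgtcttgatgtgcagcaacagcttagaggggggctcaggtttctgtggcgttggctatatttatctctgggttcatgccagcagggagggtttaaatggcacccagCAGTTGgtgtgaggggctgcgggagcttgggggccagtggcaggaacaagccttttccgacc
Hdac9, chr12:34528840-34529139, minus strand: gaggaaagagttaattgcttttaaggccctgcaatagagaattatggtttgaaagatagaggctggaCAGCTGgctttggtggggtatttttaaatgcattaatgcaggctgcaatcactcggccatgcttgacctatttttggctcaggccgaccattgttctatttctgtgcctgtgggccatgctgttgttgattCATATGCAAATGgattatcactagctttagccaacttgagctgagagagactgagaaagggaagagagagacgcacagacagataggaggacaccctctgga
Hdac5, chr11:102230123-102230422, minus strand: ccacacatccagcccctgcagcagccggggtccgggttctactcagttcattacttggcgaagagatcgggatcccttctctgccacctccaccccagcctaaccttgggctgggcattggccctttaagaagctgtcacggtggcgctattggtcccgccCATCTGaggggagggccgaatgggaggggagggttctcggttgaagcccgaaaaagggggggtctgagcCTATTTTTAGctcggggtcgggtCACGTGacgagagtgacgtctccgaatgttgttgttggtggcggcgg
The table held windows for 7 of the 9 genes. The Myog window held 2 E-boxes, and the last base of the nearer one, CAGTTG, lay 8 bases upstream of the CAGE summit. The Hdac9 window held 3 E-boxes. One with the letters CAGCTG lay 204 bases upstream of the summit, and the other two stood side by side, with CATATG at 73 bases and CAAATG at 67 bases upstream. The Hdac5 window held a match to the MEF2 consensus 42 bases upstream of the summit as well as the E-box CATCTG at 115 bases and the E-box CACGTG at 23 bases. Among all 32851 promoter windows of that length, 72.3% held an E-box, 1.86% the MEF2 consensus and 13.6% the TATA box. Mef2a, shown because it was the other member with a MEF2 match, had it 20 bases upstream of its summit.
Mef2a, chr7:67372809-67373108, minus strand: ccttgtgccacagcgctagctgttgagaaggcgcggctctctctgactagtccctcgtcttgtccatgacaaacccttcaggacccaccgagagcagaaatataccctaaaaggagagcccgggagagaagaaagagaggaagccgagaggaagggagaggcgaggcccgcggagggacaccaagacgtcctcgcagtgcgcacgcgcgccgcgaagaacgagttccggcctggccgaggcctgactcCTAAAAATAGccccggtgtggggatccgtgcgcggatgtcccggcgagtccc
These are matches of letters and not measured sites. Only full matches were marked, so a window without one may still hold a related stretch. Examples are ctatatttat in the Myog window and ctatttttgg in the Hdac9 window, which were not matched as the MEF2 consensus. The 3 marked motifs did not overlap each other in these windows.

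The libraries held 18257657 to 39176649 tags within the clusters in experiment 1 and 9359994 to 20914855 in experiment 2. Levels are in CPM, the tags of a cluster relative to the tags of its library in all clusters, after TMM scaling within an experiment. They are set against each other within an experiment and not between experiments. Since CAGE counts 1 tag per RNA molecule, levels of different genes need no correction for length. The 10 most abundant clusters took 15.1% to 40.3% of a library's tags within clusters in experiment 1. In experiment 1 the fast and slow fiber lists were complete, with 8 of 8 and 7 of 7 genes present, at summed levels of 12100 to 20900 CPM and 10000 to 16400 CPM. The library Mid 6 of experiment 1 stood apart from the other 7 Mid libraries in several members, and values without it are given where they differ.

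In the comparison of Pre with Mid, 8 of the 13 clusters passed the test at an adjusted p below 0.05, 3 higher and 5 lower in Mid. Of all 10776 clusters tested in experiment 1, 15.4% were called higher and 14.8% lower in Mid. From Mid to Post, 6 clusters were higher and 3 lower in Post, against 17.5% and 17.5% of all clusters. Myod1, Myog, Myf6 and Hdac9 fell and then rose again, while both Mef2d promoters and the main promoter of Hdac5 rose and then fell. Compared with HiT, 3 clusters were higher and 4 lower in Mid, against 19.2% and 21.8% of all clusters. Compared with Fed, 2 were higher and 8 lower in Mid, against 16.6% and 18.6%. Between Mid and Dep, 1 cluster, Myf6, was higher in Dep and none was lower, against 1.16% and 0.872%. An unadjusted p below 0.05 was found for 3 of the 13, and for 2064 of all 10776 clusters. DESeq2 also called 1 of the 13 between Mid and Dep, and 479 of all 10761 clusters it tested. The median log2 change over the 13 clusters was -0.17 from Pre to Mid, 0.25 from Mid to Post, 0.055 from HiT to Mid, -0.52 from Fed to Mid and -0.049 from Mid to Dep, where the medians over all clusters were 0.0057, -0.014, 0.018, 0.0026 and 0.00023. These comparisons share the Mid libraries, and those with Pre share the Pre libraries.

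Between the groups other than Mid, 1 cluster was lower in Post than in Pre and none was higher (0.798% and 1.05% of all clusters). From Pre to HiT 1 cluster was higher and 2 were lower (18.5% and 14.9%), from Pre to Fed 4 were higher and none was lower (5.88% and 5.32%), and from Pre to Dep 1 was higher and 3 were lower (13.7% and 12.1%). With DESeq2, the called members numbered 1 from Pre to Post, 3 from Pre to HiT, 4 from Pre to Fed and 4 from Pre to Dep. Of all clusters it called 326 of 10140 from Pre to Post. The others gave 3765, 1559 and 3010 of 10761, in this order.

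**Figure D1:**
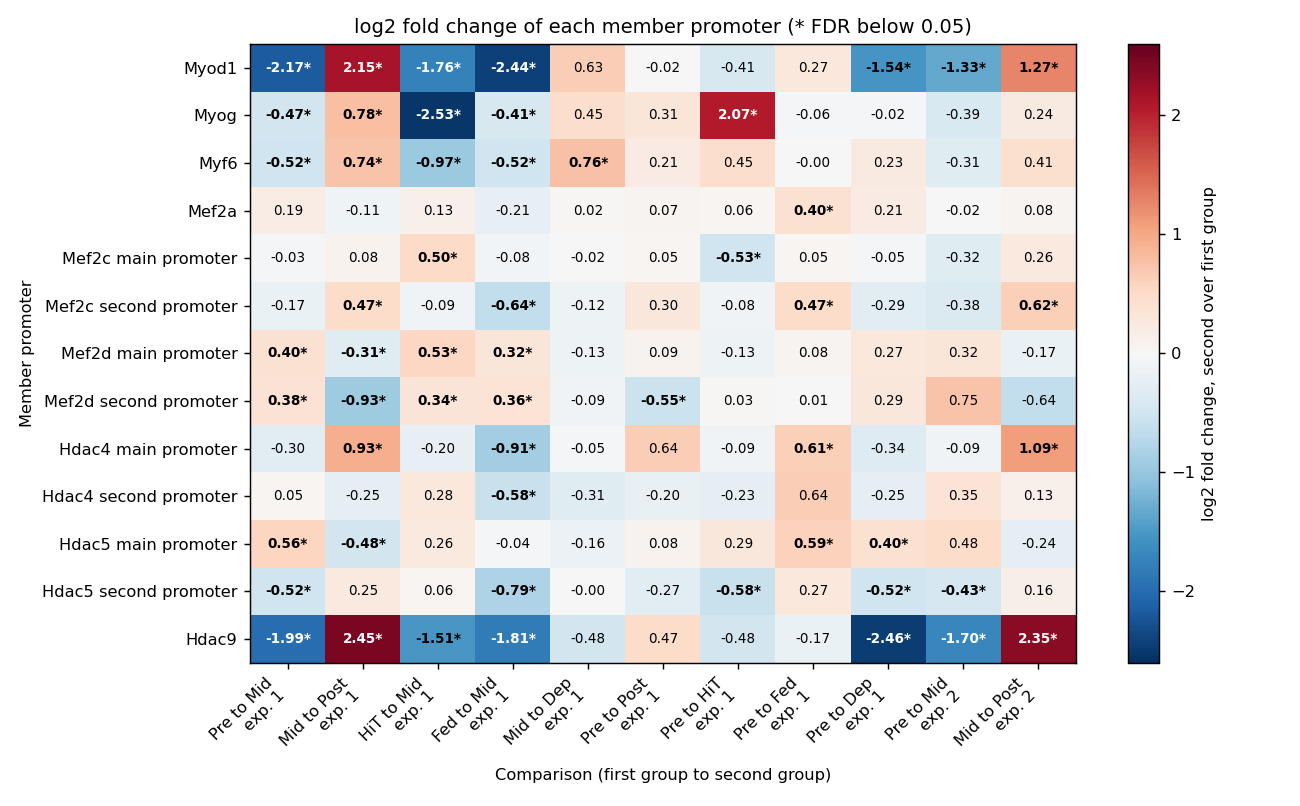
log2 fold change of the 13 member promoters (rows) in 9 comparisons of experiment 1 and 2 of experiment 2 (columns), with each value written in its cell and a star where the adjusted p was below 0.05. Red cells are higher in the second group named. Myod1 and Hdac9 have the deepest colours from Pre to Mid, from Mid to Post and from Fed to Mid, Myog has the deepest in both columns with HiT, and from Mid to Dep the greatest value is that of Myf6.

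Myod1 (chr7:46376368-46376678, plus strand, mm10) had its summit 2 bases upstream of the 5′ end of Myod1-201. Its levels in the 4 Pre libraries were 16.7, 16.8, 20.8 and 20.9 CPM, and in the 4 Post libraries 15.9, 16.1, 21.0 and 21.2 CPM. The 8 Mid libraries ran from 1.74 to 12.1 CPM with a median of 3.04 CPM. All Mid libraries lay below all Pre and all Post libraries, and 7 of the 8 lay at or below 4.24 CPM, with Mid 6 alone at 12.1 CPM. The level was 4.51-fold lower in Mid than in Pre (log2 change -2.17 ± 0.29, SE, adjusted p = 3.9e-06) and 4.45-fold higher in Post than in Mid (2.15 ± 0.29, adjusted p = 2.7e-06). The HiT libraries held 11.1, 13.99, 15.3 and 16.2 CPM, and the Fed libraries 21.8, 21.8, 22.8 and 23.8 CPM. Mid was 3.40-fold below HiT (adjusted p = 3.0e-05) and 5.42-fold below Fed (adjusted p = 7.2e-07). The lowest HiT library lay below Mid 6 and above the other 7 Mid libraries.

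In Dep, Myod1 was also low, at 4.52, 6.83, 7.07 and 7.53 CPM, which was 2.90-fold below Pre (adjusted p = 0.0019). The means ordered as Fed (22.6 ± 0.957 CPM, SD, n = 4), Pre (18.8 ± 2.38, n = 4), Post (18.5 ± 2.94, n = 4), HiT (14.2 ± 2.25, n = 4), Dep (6.49 ± 1.34, n = 4) and Mid (4.18 ± 3.29, n = 8). Post and Pre did not differ beyond their spread (log2 change -0.019 ± 0.33, adjusted p = 0.99). All Fed libraries lay above and all HiT libraries below the 4 of Pre. From Pre to Fed the log2 change was 0.27 ± 0.33 (adjusted p = 0.66), and from Pre to HiT -0.41 ± 0.34 (adjusted p = 0.37), which passed when only the Pre and HiT libraries were fitted (adjusted p = 0.032). Dep was 1.55-fold above Mid with an adjusted p of 0.26. Without Mid 6 this difference was 1.09 on the log2 scale, with an adjusted p of 0.0027. Mid 6 also had the lowest level among the Mid libraries of Trim63 (321 CPM, next 654 CPM), Fbxo32 (161 CPM, next 248 CPM) and Ppargc1a (32.6 CPM, next 84.1 CPM), genes that rose from Pre to Mid.

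Bulk muscle does not tell fewer cells of a type from less RNA per cell. Of the satellite cell list, Pax7, Myf5, Calcr and Vcam1 had no cluster, and 2 of 6 genes, Cdh15 and Sdc4, were present. Their summed level was 111 to 142 CPM in Pre, 144 to 310 CPM in Mid, 88.5 to 107 CPM in Post, 108 to 138 CPM in HiT, 110 to 131 CPM in Fed and 196 to 252 CPM in Dep, so it was high in the groups where Myod1 was low. Its part in the Myod1 values was not tested.

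Hdac9 encodes a class IIa deacetylase, and a shorter product of the gene, MITR, lacks the catalytic domain. The only Hdac9 cluster (chr12:34528739-34529111, minus strand, mm10) lay 388 kb inside the gene model, with its summit 11 bases downstream of the 5′ end of Hdac9-201 in its exon 1. The levels in Pre were 8.70, 10.6, 11.5 and 11.7 CPM. In Mid they ran from 1.58 to 5.62 CPM with a median of 2.58 CPM, and Mid 6 again held the highest. In Post they were 14.04, 14.1, 14.4 and 16.2 CPM, all above the highest Pre library. Hdac9 fell 3.96-fold from Pre to Mid (log2 change -1.99 ± 0.24, adjusted p = 1.3e-06) and rose 5.48-fold from Mid to Post (2.45 ± 0.24, adjusted p = 2.6e-08). Post against Pre gave a log2 change of 0.47 ± 0.28 (adjusted p = 0.51), which passed when only these 2 groups were fitted (adjusted p = 0.047).

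The HiT libraries held 6.55, 7.195, 7.96 and 8.72 CPM of Hdac9 and the Fed libraries 7.87, 8.83, 10.01 and 11.1 CPM. Both groups lay above all Mid libraries, by 2.84-fold (adjusted p = 2.4e-05) and 3.52-fold (adjusted p = 3.2e-06). Dep had the lowest mean of the 6 groups, with 1.13, 1.21, 2.19 and 3.17 CPM, 5.52-fold below Pre (adjusted p = 2.2e-06). The difference between Dep and Mid, -0.48 ± 0.28 on the log2 scale, did not pass (adjusted p = 0.35), and the libraries of the 2 groups overlapped. The order of the means was Post (14.7 ± 1.03 CPM, SD, n = 4), Pre (10.6 ± 1.37), Fed (9.45 ± 1.40), HiT (7.61 ± 0.941), Mid (2.69 ± 1.304, n = 8) and Dep (1.93 ± 0.958, n = 4). Pre and Fed did not differ beyond their spread (adjusted p = 0.74). HiT against Pre (-0.48 ± 0.28) had an adjusted p of 0.20, and of 0.017 when only these 2 groups were fitted. The Hdac9 values rest on 24 to 69 tags per library in Dep and 43 to 142 in Mid.

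**Figure D2:**
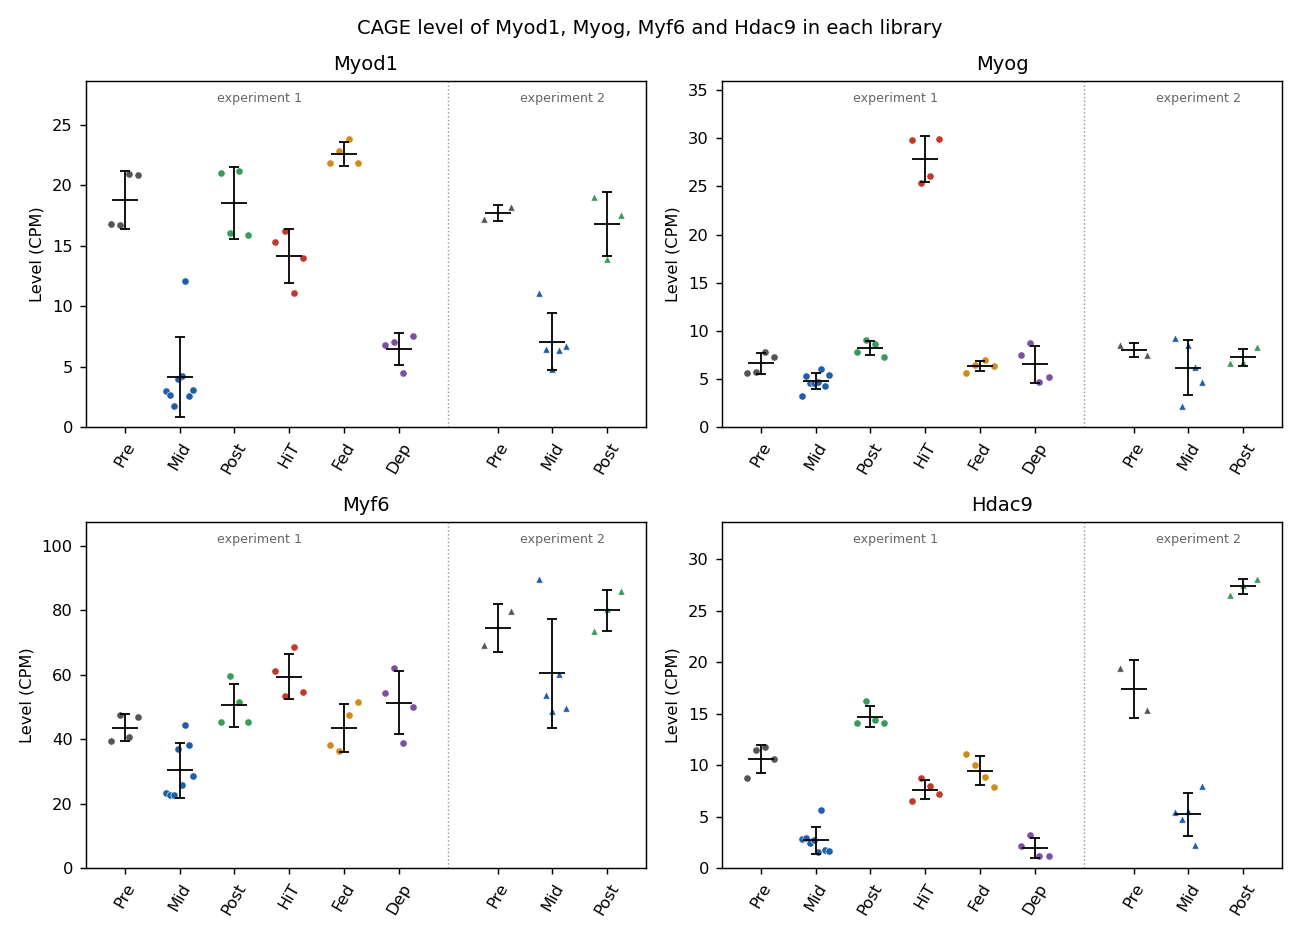
Level in CPM of Myod1, Myog, Myf6 and Hdac9 in each library, by group, with experiment 1 (circles) left and experiment 2 (triangles) right of the dotted line and the experiments scaled separately. Black marks are the mean and SD. Myod1 and Hdac9 are low in Mid and Dep, and the 4 HiT libraries of Myog, at 25.4 to 29.9 CPM, stand above all others.

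Myogenin had a single cluster (chr1:134289934-134290159, plus strand, mm10) in exon 1 of Myog-201. Its 4 HiT libraries held 25.4, 26.1, 29.8 and 29.9 CPM, while the other 24 libraries of experiment 1 lay between 3.29 and 9.04 CPM. HiT was 4.19-fold above Pre (log2 change 2.07 ± 0.17, adjusted p = 1.8e-09) and 5.79-fold above Mid (adjusted p = 6.6e-13). The Pre libraries held 5.66, 5.77, 7.31 and 7.87 CPM, and the Mid libraries 3.29 to 6.02 CPM with a median of 4.68 CPM. The fall from Pre to Mid was 1.38-fold (log2 change -0.47 ± 0.14, adjusted p = 0.0155), with overlapping groups. It was lost without Pre 3 (adjusted p = 0.082) or Pre 4 (adjusted p = 0.056). Post held 7.35, 7.86, 8.69 and 9.04 CPM, all above the Mid libraries and 1.72-fold higher (adjusted p = 0.00014). Mid against Fed, a log2 change of -0.41 ± 0.14, passed narrowly (adjusted p = 0.030) and was lost without any 1 of Fed 2, Fed 3, Fed 4, Mid 1 and Mid 7 (adjusted p = 0.067, 0.086, 0.058, 0.053 and 0.050), when only these 2 groups were fitted (0.052) and with all 38 libraries in 1 fit (0.15). Dep held 4.70, 5.26, 7.47 and 8.77 CPM and overlapped with Mid (log2 change 0.45 ± 0.15, adjusted p = 0.099). Without Dep 3 the difference passed, at 0.58 (adjusted p = 0.037). After HiT, the means ordered as Post (8.24 ± 0.768 CPM, SD, n = 4), Pre (6.65 ± 1.11), Dep (6.55 ± 1.90), Fed (6.35 ± 0.552) and Mid (4.80 ± 0.826, n = 8), and Pre did not differ beyond its spread from Post, Dep or Fed (adjusted p = 0.45, 0.95 and 0.86).

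Markers of other cells moved with the HiT group. Of the macrophage list, 4 of 5 genes were present (Csf1r, Cd68, Mrc1 and C1qa, with none for Adgre1), at a summed level of 56.3 to 124 CPM in HiT and 18.5 to 42.9 CPM in the other groups of experiment 1. The fibroblast list, with 5 of 5 genes present, summed to 2340 to 4870 CPM in HiT and 1220 to 2870 CPM elsewhere. The satellite cell list did not stand out in HiT, at 108 to 138 CPM. Their part in the Myog values was not tested.

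Myf6 was the most abundant of the 3 myogenic factors in the Pre libraries, at 39.3, 40.7, 46.8 and 47.4 CPM (chr10:107494205-107494852, minus strand, mm10). Its Mid libraries ran from 22.7 to 44.5 CPM with a median of 27.1 CPM, again with Mid 6 highest. Myf6 fell 1.44-fold from Pre to Mid (log2 change -0.52 ± 0.16, adjusted p = 0.015), with overlap, and the fall was lost without Pre 2 (adjusted p = 0.053). It rose 1.67-fold from Mid to Post (0.74 ± 0.16, adjusted p = 0.00078), where all Post libraries (45.3, 45.4, 51.6 and 59.6 CPM) lay above all Mid libraries. HiT held 53.5, 54.6, 61.0 and 68.6 CPM, 1.96-fold above Mid (adjusted p = 2.4e-05). Relative to Pre, HiT was higher by 0.45 ± 0.19 on the log2 scale, with an adjusted p of 0.067 that became 0.00985 when only these 2 groups were fitted and 0.047 without Mid 6. Mid was 1.43-fold below Fed (36.4, 38.1, 47.5 and 51.7 CPM, adjusted p = 0.013), a difference lost without Fed 4 (adjusted p = 0.067).

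Myf6 was the 1 member called between Mid and Dep. The Dep libraries held 38.7, 49.97, 54.2 and 62.1 CPM, 1.69-fold above Mid (log2 change 0.76 ± 0.16, adjusted p = 0.016), and the groups overlapped. The call was lost without Dep 2 (adjusted p = 0.091) when only Mid and Dep were fitted (adjusted p = 0.15) and without TMM scaling (0.28). Dep and Pre did not differ beyond their spread (0.23 ± 0.19, adjusted p = 0.38).

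Among the MEF2 genes, Mef2c had the highest level. Its main promoter (chr13:83503993-83504376, plus strand, mm10, summit 170 bases inside the gene model) gave 399.9, 409, 424 and 432 CPM in Pre and 347 to 461 CPM in Mid with a median of 409.5 CPM. From Pre to Mid its log2 change was -0.028 ± 0.078 (adjusted p = 0.82). The HiT libraries, at 272, 279, 294 and 310 CPM, were the lowest and lay below all others of experiment 1. HiT was 1.44-fold below Pre (log2 change -0.53 ± 0.091, adjusted p = 6.7e-05) and 1.41-fold below Mid (adjusted p = 2.1e-05). The second promoter of Mef2c (chr13:83524764-83524984, 20.8 kb inside the gene) was far weaker. It gave 11.7, 11.9, 12.7 and 14 CPM in Fed and 6.92 to 9.26 CPM in Mid (median 8.07 CPM), without overlap, 1.56-fold apart (adjusted p = 0.000102). In Post it gave 10.5, 10.7, 11.6 and 12.02 CPM, 1.39-fold above Mid (adjusted p = 0.00225). Its rise from Pre to Fed (0.47 ± 0.13, adjusted p = 0.028) was lost without any 1 of Fed 1, Fed 2, Pre 1 and Pre 3 (adjusted p = 0.058, 0.11, 0.095 and 0.092), when only these 2 groups were fitted (0.071) and without TMM scaling (0.22).

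Mef2a (chr7:67372715-67373333, minus strand, mm10) was called in none of the 5 comparisons with Mid. Its 28 libraries lay between 54.4 and 94.7 CPM, and 4 of the 5 comparisons with Mid gave log2 changes between -0.11 and 0.19 (adjusted p of 0.19 to 0.93). Mid against Fed gave -0.21 ± 0.10 (adjusted p = 0.11), which passed without Mid 3 (adjusted p = 0.038). This difference also passed with upper-quartile scaling (0.038) and with all 38 libraries in 1 fit (0.026). The rise from Pre to Mid passed only with replicate number as a term (log2 change 0.31, adjusted p = 0.046). The Fed libraries, at 76.6, 78.5, 88.8 and 94.7 CPM, lay above the Pre libraries (59.8, 60.5, 66.5 and 69.6 CPM), a difference of 0.40 ± 0.12 on the log2 scale (adjusted p = 0.035). It was lost without any 1 of Fed 1, Fed 2, Pre 1, Pre 2 and Pre 4 (adjusted p = 0.14, 0.11, 0.10, 0.065 and 0.078), and without TMM scaling (0.41).

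Mef2d rose in Mid at both of its promoters. The main one (chr3:88142250-88143512, plus strand, mm10) gave 137, 138, 151 and 156 CPM in Pre and 151 to 234 CPM in Mid, with a median of 199.7 CPM and Mid 6 lowest. The rise was 1.32-fold with overlapping groups (log2 change 0.40 ± 0.099, adjusted p = 0.0030). Mid was 1.45-fold above HiT, whose libraries at 113, 129, 142 and 147 CPM lay below all Mid libraries (adjusted p = 0.00013). It was 1.25-fold above Fed (147.5 to 158 CPM, adjusted p = 0.012). Post, at 132, 156, 156 and 175 CPM, was 1.24-fold below Mid (adjusted p = 0.015), a call lost without Post 3 (adjusted p = 0.090). The second promoter (chr3:88141858-88142077) had its summit 389 bases upstream of the annotated start. It gave 9.01, 9.75, 10.2 and 10.3 CPM in Pre, 9.35 to 15.9 CPM in Mid (median 12.4 CPM) and 5.89, 6.60, 7.01 and 7.28 CPM in Post. All Post libraries lay below all Mid libraries, 1.90-fold lower (log2 change -0.93 ± 0.12, adjusted p = 1.0e-06), and below all Pre libraries, 1.47-fold lower (adjusted p = 0.025). This last difference was lost without any 1 of Post 1, Post 2, Pre 1, Pre 2 and Pre 4 (adjusted p = 0.13, 0.074, 0.077, 0.075 and 0.057), without TMM scaling (0.475) and with all 38 libraries in 1 fit (0.15). The smaller rises of the second promoter into Mid were each lost without 1 library, from Pre (0.38 ± 0.11, adjusted p = 0.013) without Pre 3 (0.053), from HiT (0.34 ± 0.11, 0.017) without HiT 2 (0.061) and from Fed (0.36 ± 0.11, 0.014) without Fed 4 (0.056). Without TMM scaling neither Mef2d promoter passed from Pre to Mid (adjusted p of 0.24 for the main and 0.30 for the second) or from Fed to Mid (0.45 and 0.38), and the calls of the main one from Mid to Post (0.29) and of the second from HiT to Mid (0.092) were lost. When only the 2 groups compared were fitted, neither passed from Fed to Mid (0.059 and 0.065), and the main one from Mid to Post (0.064) and the second from HiT to Mid (0.057) did not pass.

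Hdac5 showed opposite changes at its 2 clusters. The main promoter (chr11:102230005-102230272, minus strand, mm10, which also lies within 500 bp of the start of Mir8101) gave 41.4, 43.4, 46.6 and 51.0 CPM in Pre and 51.2 to 78.1 CPM in Mid, with a median of 71.1 CPM and Mid 6 lowest. It rose 1.47-fold from Pre to Mid without overlap (log2 change 0.56 ± 0.12, adjusted p = 0.00062) and fell 1.39-fold from Mid to Post (41.4, 43.8, 53.3 and 54.5 CPM, adjusted p = 0.00215). Without TMM scaling the adjusted p were 0.073 and 0.099. Fed was also above Pre, at 58.6, 68.0, 69.9 and 79.0 CPM (1.51-fold, adjusted p = 0.010), a call lost without TMM scaling (0.17). Dep, at 50.6, 53.8, 63.8 and 71.6 CPM, was 1.32-fold above Pre (log2 change 0.40 ± 0.13, adjusted p = 0.026), a call lost without Dep 1, Dep 3, Pre 2 or Pre 4 (adjusted p = 0.12, 0.064, 0.083 and 0.065) and without TMM scaling (0.48). HiT held 46.8, 57.4, 58.0 and 61.5 CPM and differed from Mid by 0.26 ± 0.11 on the log2 scale (adjusted p = 0.066). This passed without Mid 6 (adjusted p = 0.013), Mid 8 (0.034), HiT 1 (0.038), Post 1 (0.041) or Dep 4 (0.044).

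The second Hdac5 cluster (chr11:102218677-102218986, 11.2 kb inside the gene) sat at the start of Hdac5-216, which is annotated as a retained intron. It gave 11.3, 12.4, 15.1 and 18.8 CPM in Pre and 7.68 to 12.8 CPM in Mid with a median of 9.99 CPM. It fell 1.43-fold from Pre to Mid (log2 change -0.52 ± 0.14, adjusted p = 0.0070), and the call was lost without Pre 4, its highest library (-0.37, adjusted p = 0.069). Fed held 13.4, 16.4, 18.1 and 22.0 CPM, all above Mid and 1.73-fold higher (adjusted p = 0.00011). Dep and HiT, at 8.45 to 12.03 CPM and 7.89 to 11.7 CPM, were 1.44-fold and 1.49-fold below Pre (adjusted p = 0.023 and 0.0097). Without Pre 4 these had adjusted p of 0.12 and 0.063, and the Dep call was also lost without Pre 1, Dep 3 or Dep 4 (0.051, 0.076 and 0.064).

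Hdac4, whose product shuttles between cytoplasm and nucleus in fibers, was highest at a cluster 82.4 kb inside the gene (chr1:92113261-92113584, minus strand, mm10), 2 bases upstream of Hdac4-204, a processed transcript. Its Mid libraries gave 7.81 to 12.1 CPM (median 10.1 CPM) and its Pre libraries 10.8, 10.98, 12.3 and 14.6 CPM, a log2 change of -0.30 ± 0.17 (adjusted p = 0.20). Post held 16.2, 17.4, 17.6 and 24.8 CPM, all above Mid and 1.91-fold higher (log2 change 0.93 ± 0.17, adjusted p = 0.00011). Fed, at 13.5, 15.5, 17.7 and 28.1 CPM, was 1.87-fold above Mid (adjusted p = 0.00018). Post also lay above all Pre libraries, a difference of 0.64 ± 0.20 that did not pass (adjusted p = 0.11). With all 38 libraries in 1 fit, which takes in experiment 2, it was 0.77 and passed (adjusted p = 0.00078). The rise from Pre to Fed (0.61 ± 0.20, adjusted p = 0.048) was at the edge of the threshold and fell to 0.35 without Fed 1 (adjusted p = 0.29), the shallowest library of experiment 1. It was lost in 16 of the 28 fits that left out 1 library, with adjusted p up to 0.29, and also without TMM scaling (0.19), with upper-quartile scaling (0.0555) and when only these 2 groups were fitted (0.11). The second Hdac4 promoter (chr1:92180050-92180370, 15.4 kb inside the gene, in exon 1 of the coding transcript Hdac4-205) gave 5.89 to 9.43 CPM in Pre, 5.84 to 12.3 CPM in Mid and 4.74 to 8.12 CPM in Post. It was called between Fed (7.70, 10.1, 13.6 and 16.2 CPM) and Mid (log2 change -0.58 ± 0.21, adjusted p = 0.033), and this was lost without Fed 1 (-0.40, adjusted p = 0.19), Fed 2 (0.11), Mid 1 (0.058), Mid 5 (0.054), Mid 6 (0.062), Mid 7 (0.051) or Mid 8 (0.063), and when only these 2 groups were fitted (0.0545).

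**Figure D3:**
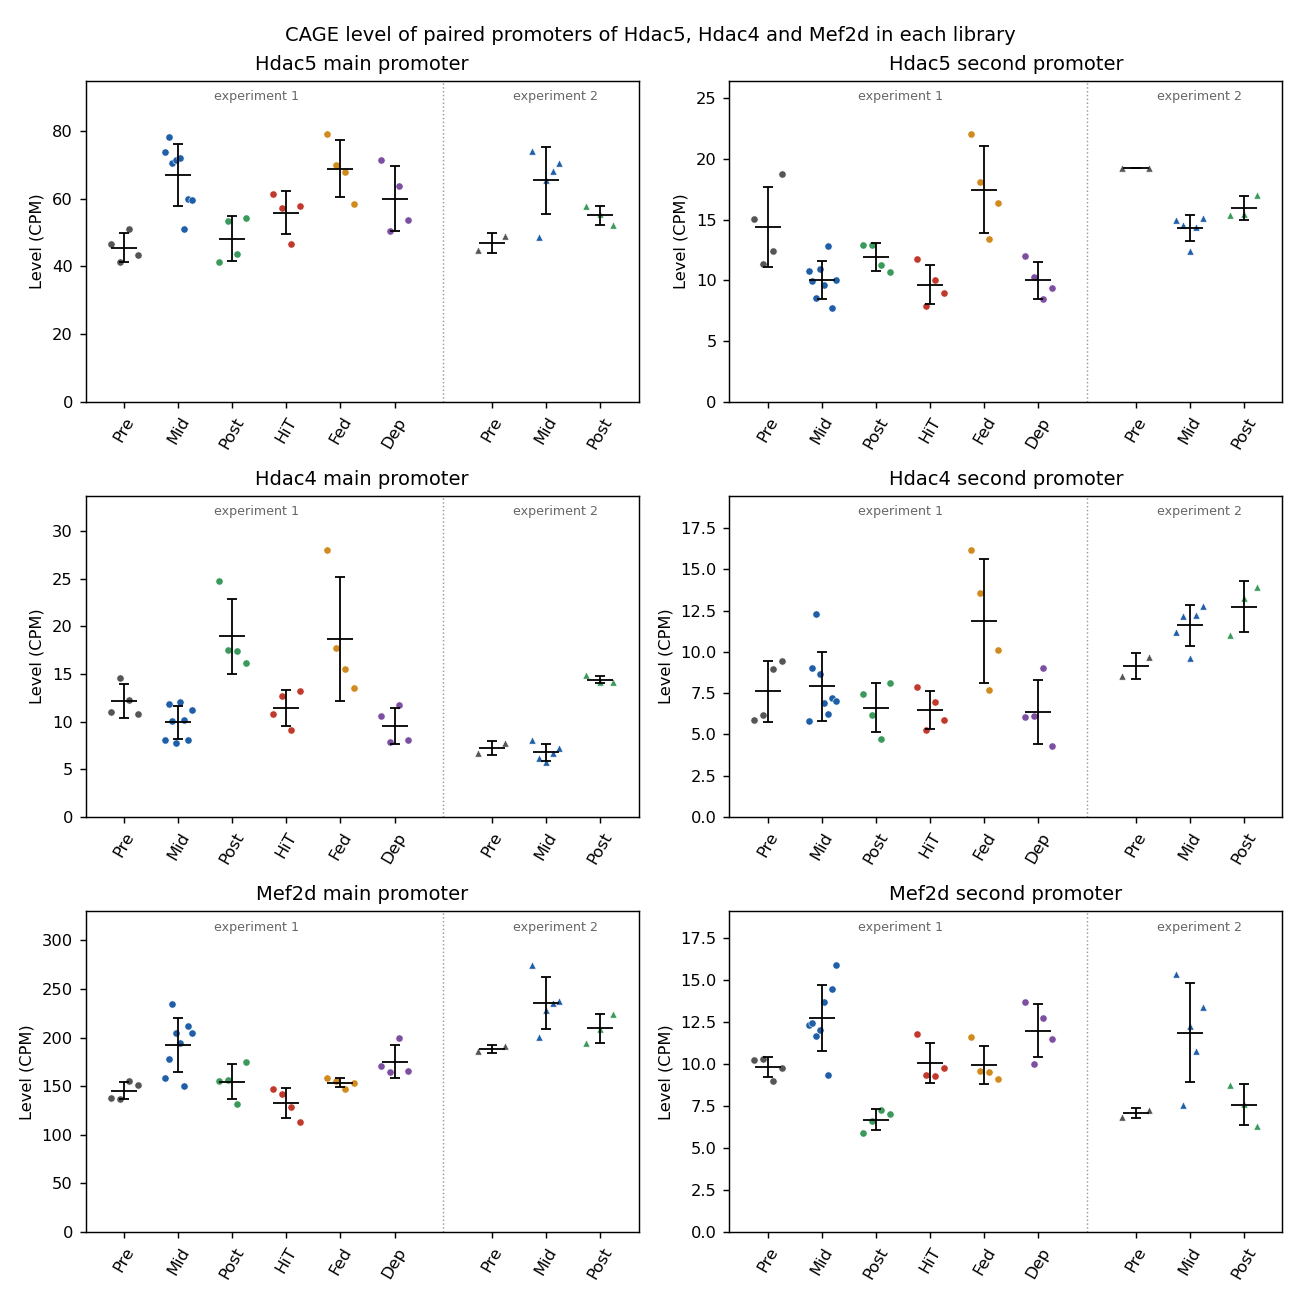
Level in CPM of the main (left) and second (right) promoter of Hdac5, Hdac4 and Mef2d in each library, by group, with experiment 1 as circles and experiment 2 as triangles, scaled separately. Black marks are the mean and SD. The main promoter of Hdac5 is higher and its second promoter lower in Mid than in Pre, and the main promoter of Hdac4 is high in Post and Fed.

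The use of the 2 promoters of a gene was compared as the log2 ratio of main to second tags, in 20 tests (4 genes by 5 comparisons) with a two-sided exact permutation test and Benjamini-Hochberg adjustment. Of these, 8 passed. Other genes with 2 clusters were not tested this way, so how often such shifts pass among them is not known. For 8 against 4 libraries the smallest p the test can give is 0.00404. The second promoter supplied 23.9% ± 4.60 (SD, n = 4) of the Hdac5 tags in Pre, 13.2% ± 2.99 (n = 8) in Mid and 20.03% ± 3.01 (n = 4) in Post. The shift from Pre to Mid (exact permutation p = 0.00808, adjusted 0.0231) and back to Post (p = 0.0121, adjusted 0.0302) passed, as did Fed, at 20.2% ± 2.54 (n = 4), against Mid (exact permutation p = 0.00808, adjusted 0.0231). For Hdac4 the share of the second promoter was 44.1% ± 6.84 (n = 8) in Mid and 26.01% ± 5.30 (n = 4) in Post (exact permutation p = 0.00404, adjusted 0.0202). For Mef2d it went from 6.26% ± 0.837 (n = 8) in Mid to 4.20% ± 0.714 (n = 4) in Post (exact permutation p = 0.00808, adjusted 0.0231). For Mef2c it was 1.96% ± 0.284 (n = 8) in Mid, below Post at 2.54% ± 0.189, HiT at 2.90% ± 0.399 and Fed at 2.85% ± 0.337 (n = 4 each, exact permutation p = 0.00404, adjusted 0.0202 in each). None of the 4 genes passed between Mid and Dep, where the adjusted p of the exact permutation test ran from 0.417 to 0.808.

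**Figure D4:**
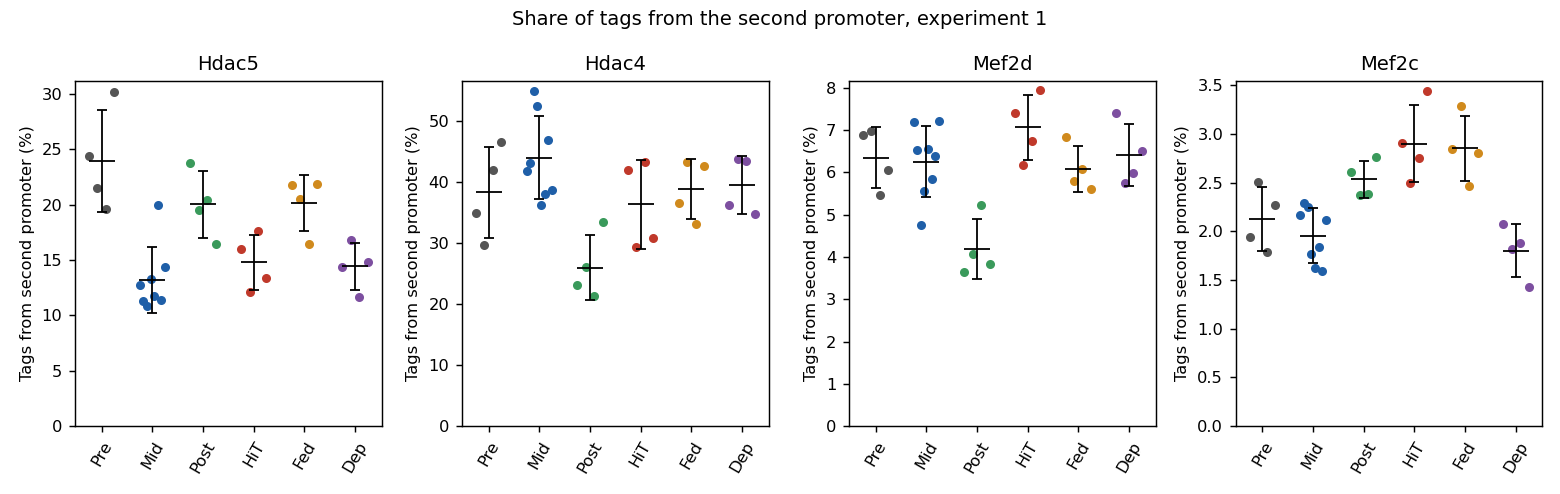
Share of a gene's tags at its 2 promoters that came from the second one, in percent, for Hdac5, Hdac4, Mef2d and Mef2c in each library of experiment 1, with the mean and SD in black. The share for Hdac5 is lower in Mid than in Pre, and that for Hdac4 is lower in Post than in Mid.

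Experiment 2 repeated the fall and recovery in 10 libraries. From Pre to Mid, 3 of the 13 clusters were lower in Mid and none was higher, against 4.44% and 5.3% of 10816 clusters. DESeq2 called 6 of the 13, and 1381 of all 10744 clusters it tested. Myod1 went from 17.2 and 18.2 CPM in Pre to 4.85, 6.35, 6.50, 6.68 and 11.1 CPM in Mid, 2.52-fold lower without overlap (log2 change -1.33 ± 0.24, adjusted p = 0.0078). Hdac9 went from 15.4 and 19.4 CPM to 2.23, 4.80, 5.48, 5.58 and 7.97 CPM, 3.26-fold lower (-1.70 ± 0.29, adjusted p = 0.0056). The second Hdac5 promoter fell 1.35-fold (adjusted p = 0.0265, and 0.054 when only these 2 groups were fitted). These calls rest on 2 Pre libraries. Without Pre 5, which leaves a single Pre library assumed to vary as the other groups do, none of the 3 passed (adjusted p of 0.060, 0.074 and 0.14). Without Pre 6, Myod1 (0.075) and Hdac5 (0.16) were lost, and without Mid 12 Hdac5 (0.051).

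From Mid to Post in experiment 2, 4 clusters were higher in Post and none was lower, against 7.73% and 8.65%. DESeq2 called 6 of the 13, and 2023 of all 10744 clusters it tested. Hdac9 reached 26.5, 27.5 and 28.02 CPM in Post (5.11-fold, log2 change 2.35 ± 0.25, adjusted p = 0.000198), and Myod1 13.9, 17.5 and 19.1 CPM (2.40-fold, adjusted p = 0.0027). The main Hdac4 promoter went from 5.80 to 8.06 CPM in Mid to 14.2, 14.2 and 14.9 CPM in Post (2.12-fold, adjusted p = 0.00031), and the second Mef2c promoter rose 1.53-fold (adjusted p = 0.023). The call for Mef2c was lost without Mid 9, Post 6 or Post 7 (adjusted p = 0.051, 0.069 and 0.086). All Post libraries and Mid 13 were sequenced in 1 lane and the other libraries in another. A fit with lane as a term therefore sets Post in effect against Mid 13 alone, and cannot sort the members firmly. With lane as a term, Hdac9 and Hdac4 still passed, while Myod1 (log2 change 1.34, adjusted p = 0.084) and Mef2c (0.77, adjusted p = 0.15) did not. Myog, with Mid libraries from 2.25 to 9.24 CPM around Pre at 7.56 and 8.56 CPM, was not called in either step (log2 change -0.39 ± 0.41 and 0.24 ± 0.36). Myf6 was not called either (-0.31 ± 0.21 and 0.41 ± 0.18), but passed in both steps without Mid 9, its highest library at 89.6 CPM (adjusted p = 0.032 and 0.0045). Without Mid 10, the second Mef2d promoter (adjusted p = 0.015 and 0.0094) and the main Hdac5 promoter (0.0037 and 0.017) also passed in both steps.

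A test of the difference between the experiments called none of 10819 clusters in either step (0.0% in both), and 605 and 704 had an unadjusted p below 0.05. None of the 13 members had an unadjusted p below 0.05 in either. A likelihood ratio test called 8 of all clusters from Pre to Mid, 0 from Mid to Post and none of the 13 members.

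**Figure D5:**
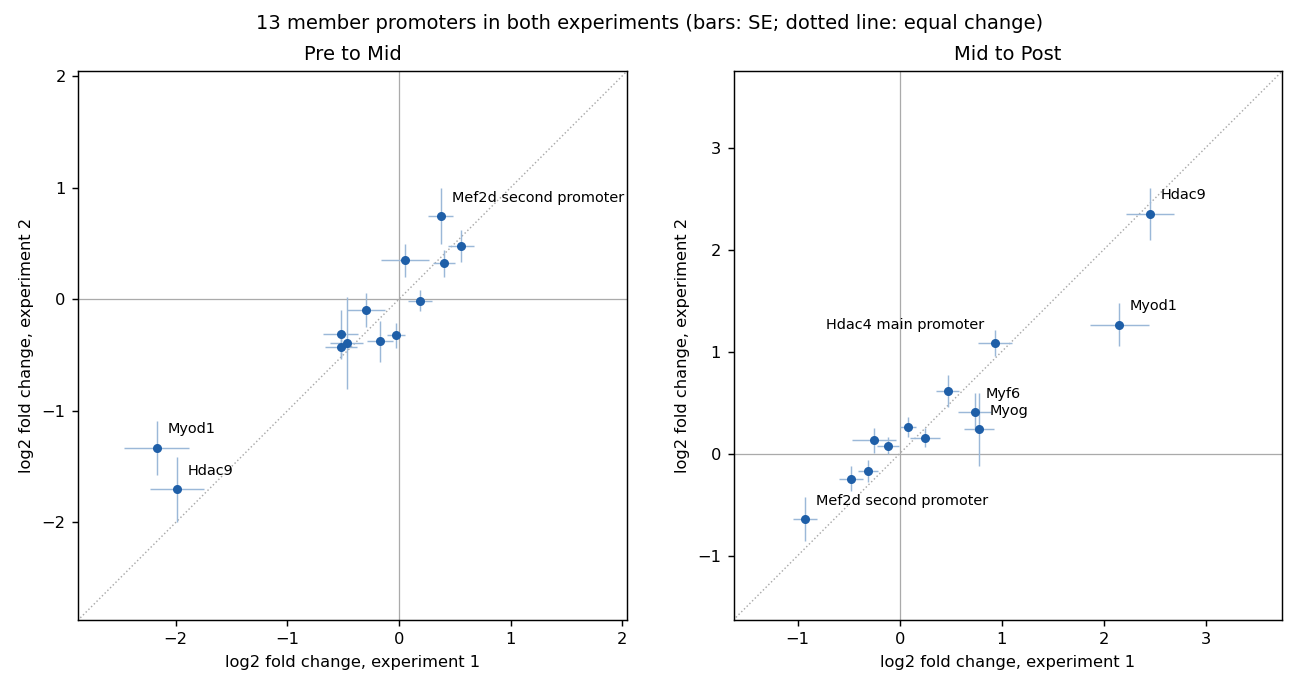
log2 fold change of the 13 member promoters in experiment 1 (horizontal) and experiment 2 (vertical), from Pre to Mid (left) and from Mid to Post (right), with SE bars and a dotted line of equal change. Myod1 and Hdac9 lie apart from the other members, at negative values on the left and positive values on the right.

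Of 16 other regulators of myogenesis listed, 9 had 12 clusters, and Pax3, Pax7 and Myf5 were among those without one. From Pre to Mid 1 cluster was higher and 1 lower (15.4% and 14.8% of all clusters). Mid to Post gave 1 higher and 2 lower (17.5% and 17.5%), and HiT to Mid 2 and 1 (19.2% and 21.8%). Fed to Mid gave 1 higher and 4 lower (16.6% and 18.6%), and Mid to Dep 1 and 0 (1.16% and 0.872%). Their median log2 change was 0.027 from Pre to Mid, -0.14 from Mid to Post and 0.12 from HiT to Mid. It was -0.17 from Fed to Mid and -0.19 from Mid to Dep. Over all clusters these medians were 0.0057, -0.014, 0.018, 0.0026 and 0.00023. Id1, an inhibitor of E protein dimers, was 1.53-fold higher in Dep than in Mid (adjusted p = 0.038). Over all clusters, calls from Mid to Dep went from 219 to 2 when only these 2 groups were fitted and to 9 without TMM scaling. Whether Id1 stayed among them is not given here.

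The other class II deacetylases and the partners of the repressor complex had 15 clusters for 14 of 15 genes. From Pre to Mid none was higher and 1 was lower (15.4% and 14.8% of all clusters). Mid to Post gave 2 higher and 1 lower (17.5% and 17.5%), and HiT to Mid 3 and 5 (19.2% and 21.8%). Fed to Mid gave none higher and 3 lower (16.6% and 18.6%). None was called from Mid to Dep (1.16% and 0.872%). Their median log2 change from Pre to Mid was 0.013. Ywhaq and Ywhah, 14-3-3 proteins that hold phosphorylated deacetylases in the cytoplasm, were 1.62-fold and 1.41-fold higher in HiT than in Mid (adjusted p = 6.1e-07 and 0.00036). Tbl1xr1, a subunit of the corepressor, was 1.42-fold lower in Post than in Mid (adjusted p = 0.0012). Hdac7, the remaining class IIa enzyme, was 1.54-fold lower in Mid than in Fed (adjusted p = 0.0021).

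Kinases and phosphatases that act on these deacetylases or on MEF2 were listed together with Rcan1 and the NFAT factors. This list had 25 clusters in experiment 1 for 23 of 27 genes. From Pre to Mid 6 were higher and 1 lower (15.4% and 14.8% of all clusters). Mid to Post gave 4 higher and 6 lower (17.5% and 17.5%), and HiT to Mid 6 and 2 (19.2% and 21.8%). Fed to Mid gave 4 higher and 11 lower (16.6% and 18.6%). None was called from Mid to Dep (1.16% and 0.872%). Their median log2 changes were 0.093, -0.21, 0.17, -0.25 and -0.16 in this order. Sik1, a salt-inducible kinase of class IIa deacetylases, rose from 14.4 ± 1.75 to 33.1 ± 17.7 CPM from Pre to Mid (n = 4 and 8, 2.30-fold, adjusted p = 0.0083) and fell 2.64-fold to Post (adjusted p = 0.0024). Sik3 rose 1.39-fold (adjusted p = 0.027) and fell 1.59-fold (adjusted p = 0.0024). Rcan1, an inhibitor of calcineurin whose gene follows NFAT, went from 286 ± 20.5 to 462 ± 140 CPM and then to 192 CPM (adjusted p = 0.018 and 9.4e-05). In experiment 2, 2 of 26 clusters of the list were higher and none lower from Pre to Mid (5.3% and 4.44% of all clusters). From Mid to Post 3 were higher and 4 lower (7.73% and 8.65%). The 2 that rose were Sik1 (1.77-fold, adjusted p = 0.016) and Nfatc1, a factor activated by calcineurin (1.41-fold, adjusted p = 0.011), so the rises of Sik3 and Rcan1 into Mid were not called there. From Mid to Post, Sik1 fell 2.05-fold and Rcan1 3.27-fold (adjusted p = 0.0012 in each).

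Muscle genes known to carry MEF2 sites had 22 clusters for 15 of 15 genes. From Pre to Mid 3 were higher and 2 lower (15.4% and 14.8% of all clusters). Mid to Post gave none higher and 3 lower (17.5% and 17.5%), and HiT to Mid 8 and 3 (19.2% and 21.8%). Fed to Mid gave 5 higher and 2 lower (16.6% and 18.6%), and Mid to Dep 1 and 0 (1.16% and 0.872%). The median log2 change from Pre to Mid was 0.088. Ppargc1a, the coactivator of oxidative metabolism, rose 27.4-fold from Pre (6.92 ± 7.73 CPM) to Mid (190 ± 119 CPM, adjusted p = 7.1e-06) and fell 62.8-fold to Post (adjusted p = 6.0e-07), and Mid was 5.48-fold above HiT and 59.1-fold above Fed (adjusted p = 0.0013 and 9.7e-07). Xirp1, an actin-binding protein of the intercalated disc and myotendinous junction, rose 2.72-fold (adjusted p = 4.9e-06) and fell 2.47-fold (adjusted p = 1.1e-05). Mb, myoglobin, was 1.6-fold above HiT in Mid (adjusted p = 2.8e-05), while Xirp2 was 1.86-fold below (adjusted p = 7.8e-08). Slc2a4, the insulin-responsive glucose transporter, fell 1.18-fold from Pre to Mid (adjusted p = 0.015).

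Genes known to follow Hdac4 or myogenin in denervated muscle had 10 clusters for 10 of 15 genes, with no cluster for Chrnd, Chrne, Chrng, Dach2 or Myh8. From Pre to Mid 4 were higher and 1 lower (15.4% and 14.8% of all clusters). Mid to Post gave 2 higher and 4 lower (17.5% and 17.5%), and HiT to Mid 3 and 5 (19.2% and 21.8%). Fed to Mid gave 5 higher and 1 lower (16.6% and 18.6%). None was called from Mid to Dep (1.16% and 0.872%). The median log2 change was 0.33 from Pre to Mid and -0.26 from Mid to Post. Trim63 and Fbxo32, the muscle ubiquitin ligases MuRF1 and atrogin-1, rose 5.34-fold and 2.67-fold from Pre to Mid (adjusted p = 2.7e-07 and 1.5e-06) and fell 6.18-fold and 2.82-fold to Post. In experiment 2, 2 clusters of the list were higher and 1 lower from Pre to Mid (5.3% and 4.44% of all clusters). There Trim63 and Fbxo32 rose 5.83-fold and 2.75-fold (adjusted p = 0.00011 and 0.0033). Musk, the receptor kinase of the neuromuscular junction, rose 1.77-fold from Pre to Mid (adjusted p = 3.2e-05) and was 1.93-fold higher in Mid than in HiT (adjusted p = 2.3e-06). Runx1 and Myh3, embryonic myosin, were 2.48-fold and 1.72-fold higher in HiT than in Mid (adjusted p = 1.1e-06 and 0.010), the direction in which Myog differed, whereas Trim63 was 2.72-fold lower in HiT (adjusted p = 4.0e-05).

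Genes outside the 9 were ranked by how close their changes from Pre in the 5 other groups of experiment 1 lay to those of a member, as the root mean square difference of log2 means over 9428 clusters. Among the nearest to Myod1 were Aplnr (0.290) and Asb18 (0.377), and among the nearest to Hdac9 were Mid1ip1 (0.336) and Asb18 (0.392). Asb18 was thus on both lists. Nearest to Myog were Tyrobp (0.151), Laptm5 (0.173) and Rnh1 (0.183). The closest match of all was Map3k4 to the second Mef2c promoter (0.0360). Closeness grows easily for genes that change little, so these distances are a description over 5 group means.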

How the data were processed

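Capped RNA of 38 soleus muscles was sequenced by nAnT-iCAGE. Per the sources used here, the authors mapped tags to mm10 (the submitters' notes name BWA and HISAT2), clustered start sites and deposited raw tag counts per cluster together with TPM values, which scale the tags of a cluster to all tags of its library. The deposited counts were tested here and the TPM were used only to describe clusters outside the rule. The 9 genes, the gene lists and the tests were chosen with earlier results of these data known. A cluster belonged to a gene when its summit lay within 500 bp of a GENCODE vM21 5′ end on the same strand. The listed Mkl1 and Mkl2 were matched as Mrtfa and Mrtfb.

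Clusters with any tag were fitted with edgeR 4.0.16 (R 4.3.3, TMM, quasi-likelihood F test) in 1 fit of the 28 libraries of experiment 1, in another of the 10 of experiment 2, and in a joint one of Pre, Mid and Post of both with the experiment as a factor. Benjamini-Hochberg adjustment ran over all clusters of a comparison, and an adjusted p below 0.05 was a call. Log2 changes are given with their SE. Exact permutation tests (scipy) were two-sided, with a pseudocount of 0.5 tags for promoter ratios. Likeness used log2(CPM + 0.5) for clusters of at least 1 CPM. Fits were tested on simulated counts. Alternatives were a likelihood ratio test, DESeq2 1.42.0, other scalings, filterByExpr, fits of the compared groups only, replicate number or lane as a term, all 38 libraries together, summed clusters and each library left out. The rule for naming genes took all clusters of the 9 genes, up to 4 called genes of each list and comparison with the greatest change, of which some are printed, and the 3 nearest profiles. Some genes that this rule took are not reported here. 72 pairs of replicates were checked for duplicates, and none was found. Nothing in the labels ties replicates to cages or litters, so p-values measure the spread between these mice.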

Additional observations from a re-analysis of the deposited data

Results flagged for a closer look

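In groups of 4 to 10 libraries, the highest and lowest value of each of the 13 clusters was set against Dixon's 95% limit, which chance alone exceeds in about 1 of 20 groups. Of 91 groups, 6 held such a library. Myod1 and Hdac9 were both high in Mid 6 of experiment 1, at 12.1 CPM (next 4.24 CPM) and 5.62 CPM (next 2.93 CPM). Without Mid 6 the difference of Myod1 between Mid and Dep passed the test, as given above.

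The other 4 were single values. Myf6 in Mid 9 of experiment 2 was at 89.6 CPM, with the next library at 60.3 CPM. The main Hdac4 promoter in Post 1 of experiment 1 was at 24.8 CPM, with the next at 17.6 CPM. The second Hdac5 promoter in Mid 11 of experiment 2 was at 12.4 CPM, with the next at 14.4 CPM. Hdac9 in Post 2 of experiment 1 was at 16.2 CPM, with the next at 14.4 CPM.

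Outside the rule, Mef2c had 2 further clusters over its last exons, with summits at chr13:83663831 (mean 8.99 TPM over the 38 libraries, 4.91 to 13.2 TPM) and chr13:83664552 (mean 12.1 TPM, 6.88 to 20.4 TPM). They lay 3249 and 2528 bases before the end of the gene and entered no comparison.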

How the results depend on the processing

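No called change of the 13 clusters turned its direction under any alternative run. The numbers of called clusters that moved were as follows. Without TMM scaling they were 5 from Pre to Mid and 0 from Mid to Dep, Pre to Post and Pre to Fed. When only the 2 compared groups were fitted they were 6 from Fed to Mid, 0 from Mid to Dep, 2 from Pre to Post, 6 from Pre to HiT and 2 from Pre to Fed. Summing the clusters of a gene gave 6 from Fed to Mid, 0 from Pre to Post and 2 from Pre to Dep. Of all 10772 clusters, that fit called 3793, 198 and 2781 in this order. In experiment 2, DESeq2 gave 6 from Pre to Mid, all 38 libraries with the experiment as a term gave 9 from Pre to Mid and 11 from Mid to Post, since the larger experiment then enters, and lane as a term gave 2 from Mid to Post.

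With 1 library left out, experiment 1 gave 6 to 8 calls from Pre to Mid, 8 to 9 from Mid to Post, 6 to 8 from HiT to Mid, 7 to 11 from Fed to Mid, 0 to 2 from Mid to Dep, 0 to 1 from Pre to Post, 2 to 4 from Pre to HiT, 1 to 5 from Pre to Fed and 2 to 6 from Pre to Dep. Experiment 2 gave 0 to 5 from Pre to Mid and 3 to 6 from Mid to Post. The shares of all clusters called in these fits are not given here. The ranges therefore only describe how far the member counts moved, and do not set the members apart from other clusters.

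Replicate numbers did not pair the libraries: same-numbered ones had correlated deviations of -0.63 to 0.45, with a median of -0.086 over 60 pairs. With the replicate block, calls went from 1 to 2 from Mid to Dep, and no count of calls in another comparison moved by over 1.5 times. For 2 members a call was not made with the block, the second Hdac4 promoter from Fed to Mid (log2 change -0.42, adjusted p = 0.29) and the main Hdac4 promoter from Pre to Fed (0.59, adjusted p = 0.068). In experiment 2, no paired analysis was possible because Mid shares no number with Pre or Post, and Pre and Post, which share 2 numbers, were not compared.

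Over all clusters, leaving out TMM shifted the median log2 change to -0.12 (Fed to Mid), 0.11 (HiT to Mid), -0.18 (Pre to Dep) and -0.13 (Pre to HiT). It also lowered the calls, from 3253 to 1458 from Pre to Mid, 3771 to 1630 from Mid to Post, 4422 to 2323 from HiT to Mid, 3797 to 2181 from Fed to Mid, 219 to 9 from Mid to Dep, 199 to 21 from Pre to Post, 3604 to 1974 from Pre to HiT, 1207 to 6 from Pre to Fed and 2783 to 1444 from Pre to Dep. Fitting only the 2 groups left 2 calls from Mid to Dep and 631 from Pre to Fed. It gave 2838 from Fed to Mid, 275 from Pre to Post and 3732 from Pre to HiT. DESeq2 made 479 calls from Mid to Dep and 326 from Pre to Post, the likelihood ratio test 343 and the replicate block 407 from Mid to Dep. All 38 libraries gave 731 from Pre to Post, and 4009 (main 1053) and 4527 (main 1772) in the steps of experiment 2, where lane as a term left 485 from Mid to Post. With upper-quartile scaling the share of calls that were higher went from 51.0% to 35.7% from Pre to Mid, 49.9% to 63.3% from Mid to Post, 47.1% to 36.7% from Fed to Mid, 55.4% to 41.3% from Pre to HiT, 53.1% to 38.9% from Pre to Dep and 47.2% to 58.3% from Mid to Post in experiment 2. Without TMM that share went from 57.1% to 77.8% from Mid to Dep and from 52.5% to 33.3% from Pre to Fed, and was 36.6%, 49.6%, 23.3%, 29.6%, 25.3% and 62.2% in the comparisons listed for upper-quartile scaling, in that order. The causes were not tested.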
